A study of Mus musculus with 14 samples.

Results

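The MHC and peptide loading genes are 10 genes whose products build, load or switch on the molecules that show peptides to T cells and natural killer cells: H2-K1, H2-T23, H2-M3, H2-Q4, H2-Ab1, B2m, Tap1, Tap2, Tapbp and Nlrc5. They were taken by gene symbol from probe sets that carry a single symbol. All 10 were measured, among 22180 genes in all, by 12 probe sets, since H2-Q4 and Tapbp each have a pair of them. Expression was profiled in luminal cells of the mammary gland, sorted by flow cytometry into 7 Lu-pos samples (CD24+ ICAM1+, the fraction that holds the clonogenic progenitors) and 7 Lu-neg samples (CD24+ ICAM1-, the fraction rich in hormone receptors). Each Lu-pos sample has a Lu-neg partner from the same pool of at least 12 mammary glands, and pools are numbered 1 to 7. The donors of all 14 samples were adult virgin females, 4 to 6 months old, of the BALB/cByJ JAX and C57Bl/6 strains, with no transgene or treatment given for the array samples. Which pool came from which strain was not stated in the sources read. Antibodies to CD45 and CD31, markers of immune and endothelial cells, were part of the sorting stain.

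A class I molecule is a heavy chain held at the cell surface by the light chain beta-2 microglobulin (B2m). Its peptide is cut from cytosolic proteins by the proteasome, carried into the endoplasmic reticulum by the transporter made of Tap1 and Tap2, and fitted into the groove with the help of tapasin (Tapbp). Class I molecules are found on most cells of the body, while class II molecules, such as the one whose beta chain H2-Ab1 encodes, are best known from dendritic cells, macrophages and B cells. Interferons and the transactivator Nlrc5 are known to raise the class I genes together. Heavy chains are highly polymorphic between mouse strains: BALB/c mice carry the d haplotype of the H2 complex and C57BL/6 mice the b haplotype.

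The array medians lay between 3.46 and 3.58 on the log2 intensity scale, and no pair of arrays held identical values. A background level of 3.73 was set at the 95th percentile of the mean levels of 1390 olfactory and vomeronasal receptor genes. Icam1, the gene of the sorting marker, was 2.17-fold higher in Lu-pos cells (adjusted p = 0.0403 from limma) and higher in 6 of 7 pairs. All 8 luminal progenitor markers were higher and all 6 measured hormone-sensing markers lower in Lu-pos cells. Of 19 measured immune cell markers, 3 had a mean above background (Cd68, Lyz2 and Cd209a), and none was called between the populations by limma (2 higher and 1 lower at an unadjusted p under 0.05). Their summed linear intensity ran between 249 and 303 in Lu-pos samples, against 202 to 339 in Lu-neg samples. Of the other non-luminal lists, basal markers had no call among 10 genes, with sums of 439 to 1220 in Lu-pos and 200 to 2020 in Lu-neg samples. At an unadjusted limma p under 0.05, Krt17 (log2 fold change 1.59) and Oxtr (0.62, in all 7 pairs) were higher in Lu-pos cells, and no basal marker was lower. Endothelial markers had 1 lower of 9 (Vwf, log2 fold change -1.20, limma adjusted p = 0.00155), with sums of 102 to 645 in Lu-pos and 177 to 706 in Lu-neg samples. Fibroblast and adipocyte markers had 1 lower of 10 (Dcn, -0.49, limma adjusted p = 0.0117), with sums of 633 to 2030 in Lu-pos and 397 to 2560 in Lu-neg samples. Vwf and Dcn had the lower value on the Lu-pos side of all 7 pairs, the direction in which H2-T23 and Tap2 were called. No other marker of their lists was called. The median log2 fold change was 0.15 over the fibroblast and adipocyte list and -0.14 over the endothelial list. The part of such cells in the H2-T23 and Tap2 results was not tested. Ptprc, which encodes CD45, stayed below background on every array, at 2.85 to 3.06 in Lu-pos cells and 2.80 to 3.25 in Lu-neg cells. In sorted bulk samples, fewer cells of a type and less RNA per cell cannot be told apart.

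The first question was which of the 10 genes differed between the progenitor-rich Lu-pos fraction and the hormone-sensing Lu-neg fraction. H2-T23, a nonclassical class I heavy chain, and Tap2, a chain of the peptide transporter, were lower in Lu-pos cells by about 1.5-fold at a limma adjusted p under 0.05. No member was called higher, and 8 were not called. Over all 22180 genes 7.19% were called lower (1595) and 4.35% higher (964), so a count of 2 in 10 is read gene by gene and not as a property of the set. With housekeeping scaling those calls were 926 lower and 1761 higher, and without Hprt among the scaling genes 1242 and 1176. Without adjustment, 4 members had a p under 0.05, all of them lower, as had 14.3% of all genes in that direction. On average over pools, 9 of 10 members had a lower mean in Lu-pos cells, as had 55.3% of all genes. Their median log2 fold change was -0.29, against -0.02 for all genes. By level, 9 of the 10 genes lay above background on every array, and Nlrc5 lay below it on every array.

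**Figure D1:**
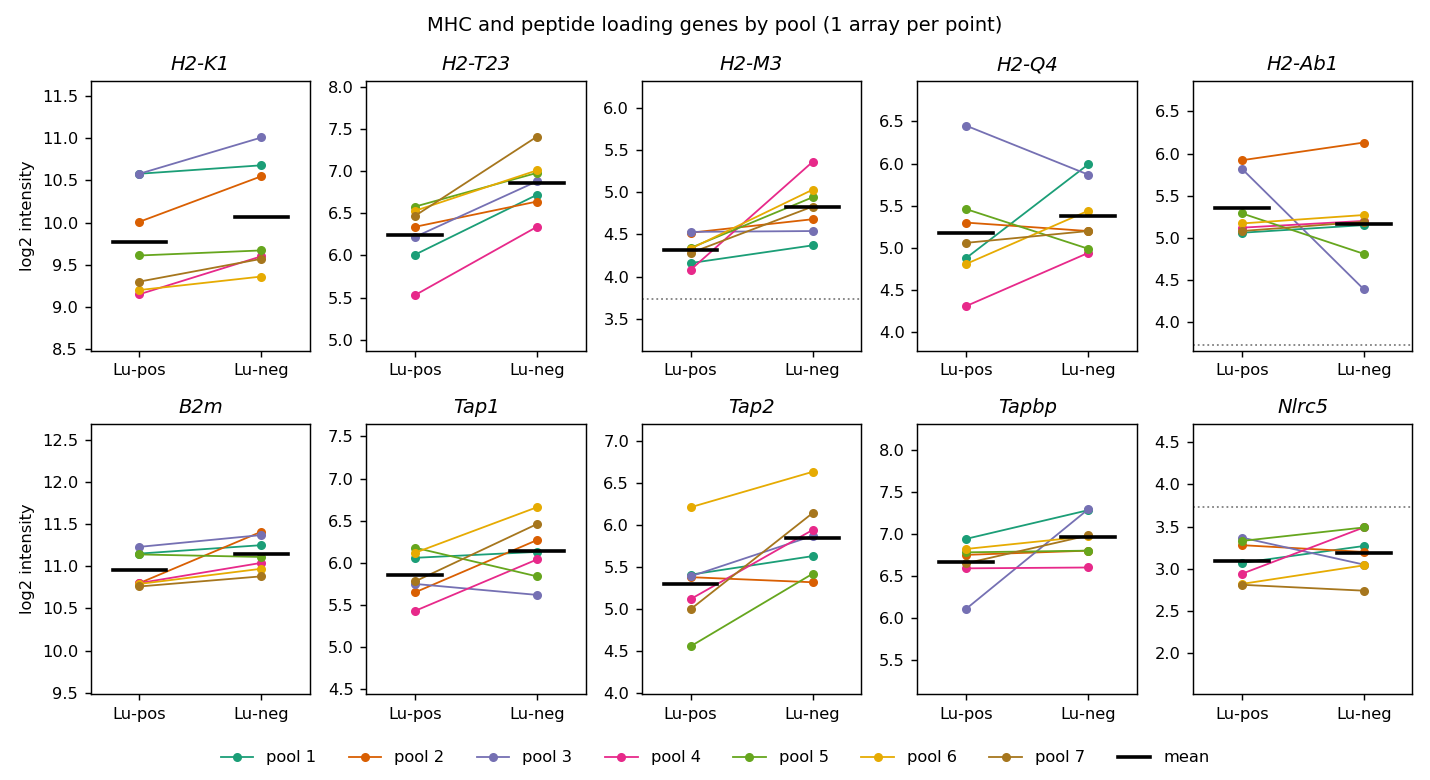
Log2 intensity (vertical axis) of the 10 genes in Lu-pos (left) and Lu-neg (right) samples, 1 point per array, with lines joining the samples of a pool, black bars for the population means and a dotted line at the background level of 3.73. Every panel spans the same number of log2 units. H2-T23 was lower in Lu-pos cells in each of the 7 pools, and H2-K1 separated into 3 high and 4 low pools.

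H2-T23 encodes the heavy chain of Qa-1, a nonclassical class I molecule that shows leader peptides of other class I chains to the CD94/NKG2 receptors of natural killer cells. Its log2 intensity ran between 5.53 and 6.58 in Lu-pos samples, with a median of 6.34. In Lu-neg samples it ran between 6.34 and 7.41, with a median of 6.88. The ranges overlapped, but in every pool the Lu-pos sample was the lower one, by 0.30 to 0.94 log2 units. The means were 6.24 ± 0.37 in Lu-pos and 6.85 ± 0.34 in Lu-neg cells (SD, n = 7 each), a 1.53-fold lower level in Lu-pos cells (limma adjusted p = 0.00366, with -0.61 ± 0.09 as the log2 fold change and its standard error). The call held when each pool was left out in turn.

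H2-M3 encodes a class I molecule that presents peptides starting with a formylated methionine, as bacterial and mitochondrial proteins do. Lu-pos samples ran between 4.08 and 4.53, with a median of 4.33, not far above background. Lu-neg samples ran between 4.37 and 5.36, with a median of 4.83. All 7 Lu-pos samples were below their Lu-neg partners, by 0.01 to 1.28 log2 units. The log2 fold change of -0.50 had a 95% confidence interval of -0.82 to -0.18 and narrowly missed the threshold (limma adjusted p = 0.0537). The gap was uneven across pools, with a mean difference of -0.13 in pools 1 to 3 and -0.78 in pools 4 to 7. It passed the threshold without pool 3 (adjusted p = 0.0431), and also without the pairing (adjusted p = 0.0279).

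H2-K1 encodes a classical class I heavy chain, the kind that shows peptides to CD8 T cells. Lu-pos samples ran between 9.15 and 10.58, with a median of 9.61. Lu-neg samples ran between 9.36 and 11.01, with a median of 9.67. The populations overlapped almost fully, yet each Lu-pos sample was below its partner, by 0.06 to 0.54 log2 units. The log2 fold change of -0.29 (95% confidence interval -0.48 to -0.09) was not called (limma adjusted p = 0.0628).

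H2-Q4 encodes a nonclassical class I heavy chain of the Qa group. Its brighter probe set ran between 4.31 and 6.45 in Lu-pos samples, with a median of 5.06, against 4.94 to 5.99 in Lu-neg samples, with a median of 5.20. Lu-pos was lower in 4 pools and higher in 3, and the log2 fold change was -0.19 (95% confidence interval -0.64 to 0.25, adjusted p = 0.652 from limma). The dimmer probe set had the lower value on the Lu-pos side in 6 of 7 pools and a log2 fold change of -0.48 ± 0.18 (standard error), with a limma adjusted p of 0.138 over 23521 probe sets. Neither probe set passed the test.

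B2m, the light chain of class I molecules, had bright and even signals. Lu-pos samples ran between 10.76 and 11.23, with a median of 10.80, and Lu-neg samples between 10.88 and 11.41, with a median of 11.11. Its log2 fold change was -0.19 (95% confidence interval -0.39 to 0, limma adjusted p = 0.227), and the Lu-pos sample had the lower value in 6 of 7 pools. B2m was not called, and the interval runs from a level 0.39 log2 units lower in Lu-pos cells to no difference.

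Tap1 and Tap2 encode the chains that together form the peptide transporter. Tap2 ran between 4.56 and 6.21 in Lu-pos samples, with a median of 5.38, and between 5.32 and 6.63 in Lu-neg samples, with a median of 5.87. It was lower in Lu-pos cells in every pool but pool 2, where Lu-pos was higher by 0.06. The means were 5.30 ± 0.50 in Lu-pos and 5.85 ± 0.45 in Lu-neg cells (SD, n = 7 each), a 1.47-fold lower level in Lu-pos cells (limma adjusted p = 0.0319, with -0.55 ± 0.14 as the log2 fold change and its standard error). The call was lost when any of pools 3, 4, 5, 6 or 7 was left out (adjusted p from 0.0595 to 0.0825), without the pairing (adjusted p = 0.177) and with housekeeping scaling (adjusted p = 0.0703). The mean difference was -0.21 in pools 1 to 3 and -0.81 in pools 4 to 7.

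Tap1 ran between 5.43 and 6.18 in Lu-pos samples, with a median of 5.78, and between 5.62 and 6.66 in Lu-neg samples, with a median of 6.13. Lu-pos was lower in 5 pools and higher in pools 3 and 5. The log2 fold change was -0.29 (95% confidence interval -0.61 to 0.02, limma adjusted p = 0.257). Tap1 was not called, and whether its difference departed from that of Tap2 was not tested.

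Tapbp encodes tapasin, which bridges the transporter and the empty class I molecule and edits its peptide. Its brighter probe set ran between 6.11 and 6.94 in Lu-pos samples, with a median of 6.75, and between 6.60 and 7.29 in Lu-neg samples, with a median of 6.97. All 7 Lu-pos samples were lower than their partners, but by only 0.01 to 0.34 log2 units outside pool 3, where the gap was 1.18. The log2 fold change was -0.30 (95% confidence interval -0.61 to 0.02, limma adjusted p = 0.244), and it was -0.15 without pool 3. The dimmer probe set gave -0.70 ± 0.20 (standard error), with the lower value on the Lu-pos side in 6 of 7 pools, and narrowly missed the threshold (limma adjusted p = 0.0501 over 23521 probe sets). Neither probe set of Tapbp was called.

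H2-Ab1, the class II beta chain, was the only member with a higher mean in Lu-pos cells. Lu-pos samples ran between 5.06 and 5.92, with a median of 5.17, and Lu-neg samples between 4.39 and 6.13, with a median of 5.19. The medians were nearly equal, Lu-pos was lower in 5 of 7 pools, and the mean was carried by pool 3, where Lu-pos was 1.43 higher. The log2 fold change was 0.19 (95% confidence interval -0.24 to 0.61, adjusted p = 0.645 from limma), and -0.02 without pool 3. Nlrc5, the transactivator of class I genes, ran between 2.81 and 3.37 in Lu-pos samples and between 2.74 and 3.49 in Lu-neg samples. At this signal, under the background level, no difference was detectable (log2 fold change -0.09, adjusted p = 0.691 from limma), and a low array signal is no measure of the protein.

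**Figure D2:**
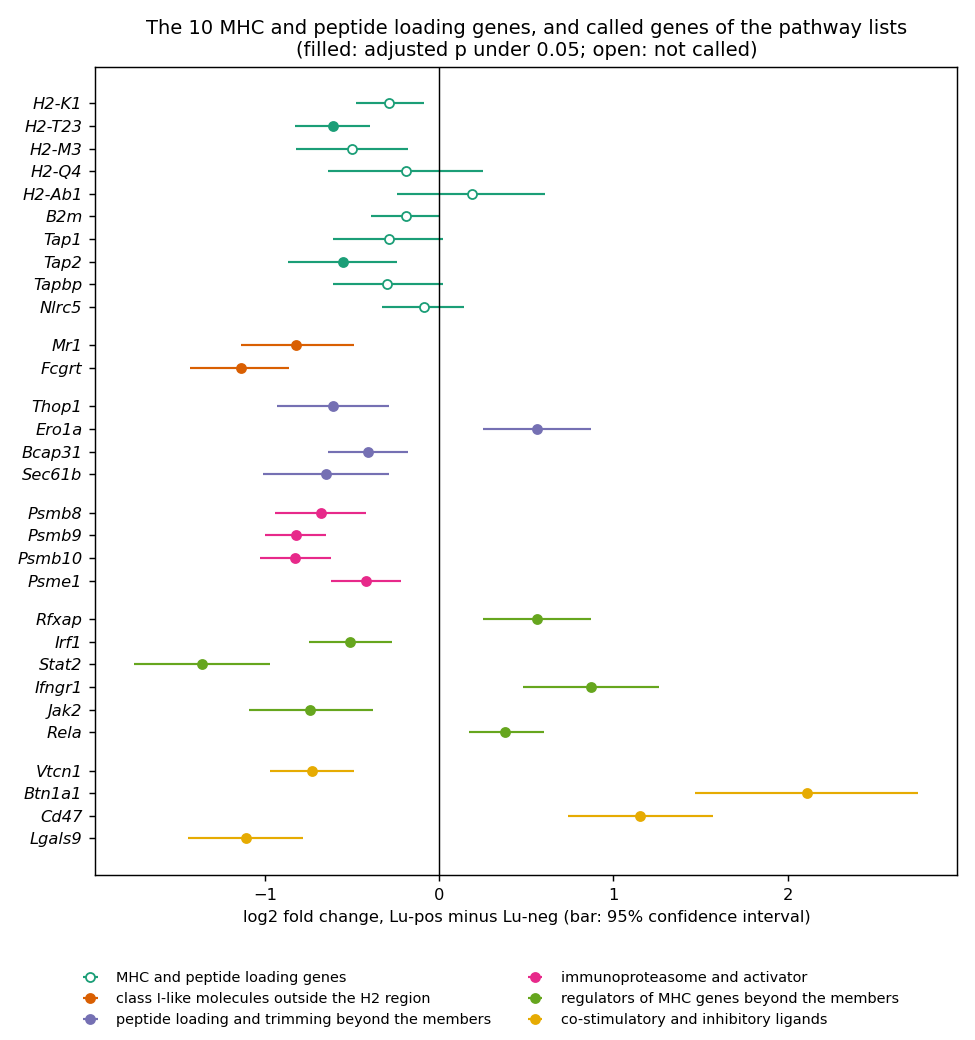
Log2 fold change of Lu-pos minus Lu-neg cells (horizontal axis) with its 95% confidence interval for the 10 genes and for the 20 called genes of the pathway lists, coloured by list. Filled points were called at an adjusted p under 0.05. H2-T23 (-0.61) and Tap2 (-0.55) are the filled members, and the immunoproteasome genes lie between -0.83 and -0.42.

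The pools were then compared with each other, with the populations held apart in the fit, since the pools came from 2 strains that differ in their H2 alleles. H2-K1 differed between pools (limma F = 31.1, adjusted p = 0.0108), and it ranked 21 of 22180 genes by this F. It was the only member called, where 0.298% of all genes (66) were. The 6 arrays of pools 1 to 3 lay between 10.01 and 11.01 and the 8 arrays of pools 4 to 7 between 9.15 and 9.67, so these sets did not overlap in either population. Their means were 10.57 and 9.43. Pool means ranged over 1.52 log2 units, with pool 6 lowest at 9.28 and pool 3 highest at 10.8. The SD of the pool means was 0.64, against a median of 0.23 over genes above background. The split into pools 1 to 3 and 4 to 7 was drawn from these values, so the F over all 7 pools is the test and the means of the sets are a description.

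**Figure D3:**
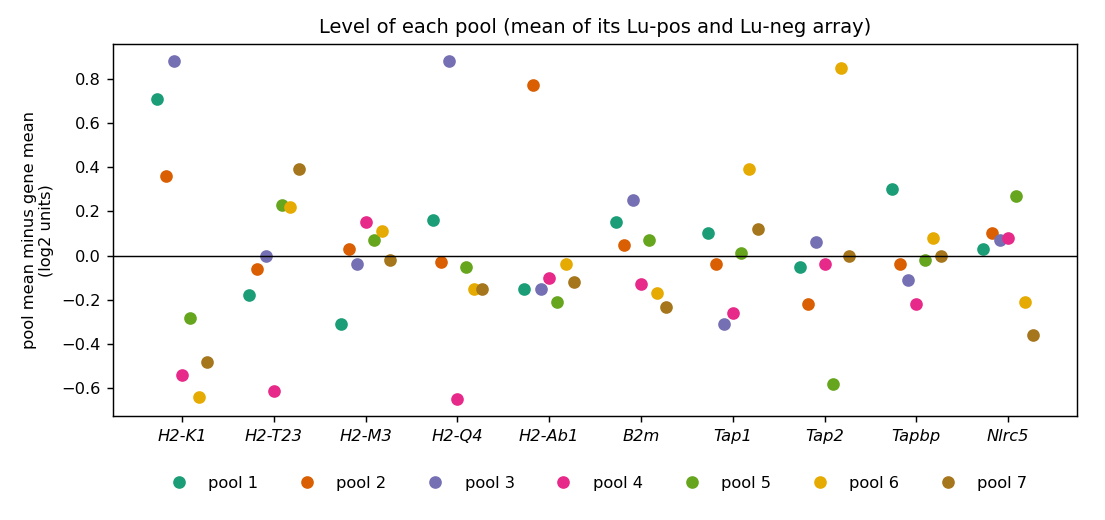
Mean of the Lu-pos and Lu-neg array of each pool, as the deviation from the mean of the gene in log2 units (vertical axis), for the 10 genes, with pools as coloured points. H2-K1 shows pools 1 to 3 above and pools 4 to 7 below its mean, from 0.88 in pool 3 to -0.64 in pool 6.

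The call of H2-K1 held without any single pool, with F between 22.9 and 38.1 and adjusted p between 0.0193 and 0.0499. The other 9 members were not called, though 3 of the 10 had an unadjusted p under 0.05 in this test. H2-T23 had the next highest F of the members (7.11, adjusted p = 0.179), with pool 4 lowest at 5.94 and pool 7 highest at 6.94. Pool means of H2-Q4 spread as widely as those of H2-K1, over 1.54 log2 units, but the difference between its populations varied from -1.11 to 0.58 among pools, and its F was 3.08 (adjusted p = 0.425). Tap2 had a spread of 1.43 between pools 5 and 6 (F = 5.44, adjusted p = 0.249). Pools differ in donors and preparation, and strains were assigned to pools in a way not stated here, so these cannot be told apart. A difference in sequence between alleles under the probes and a difference in RNA level cannot be told apart either. Summed immune markers ran between 202 and 339 in pools 1 to 3 and between 249 and 287 in pools 4 to 7. Summed fibroblast and adipocyte markers ran between 397 and 1620 in pools 1 to 3 and between 1300 and 2560 in pools 4 to 7. Dcn, a fibroblast marker counted in those sums, was also called between pools (F = 104, adjusted p = 0.000305 from limma). It divided them as H2-K1 did but in the other direction, at 7.11 to 8.48 in pools 1 to 3 and 9.61 to 10.69 in pools 4 to 7. No other fibroblast or adipocyte marker was called between pools, and Col1a2 had the next highest F (6.11, adjusted p = 0.221 from limma). The part of fibroblast RNA in the H2-K1 result was not tested.

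Genes with a pattern most like that of each member were found by Pearson correlation of the deviations from the population means over the 14 arrays, which share pools, amplification and scaling. For H2-K1 they were Tti2 (r = 0.96), ND3 (r = 0.95), a mitochondrially encoded subunit of respiratory complex I, and Myo7a (r = 0.94), a myosin heavy chain whose signal was below background on 13 of the 14 arrays. ND3 itself was called between pools (adjusted p = 0.0317 from limma). It ran between 11.52 and 11.69 on the arrays of pools 1 to 3 and between 10.70 and 10.91 on those of pools 4 to 7, the same division of pools as in H2-K1. ND3 was chosen for its likeness to H2-K1, so its call and the shared division are a description and no separate test. Among the members, B2m (r = 0.83) and H2-Q4 (r = 0.64) were the nearest to H2-K1. The nearest genes of H2-T23 were Immt (0.85), Pdzd11 (0.84) and Abca3 (0.84), and those of H2-M3 were Snrk (0.94), Dnaja2 (0.91) and Esp34 (0.90), the last below background on all 14 arrays.

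Promoters of members with a lower mean in Lu-pos cells are shown because class I promoters are known to carry a compact enhancer with binding sites for NF-kappa B and interferon regulatory factors (IRF), followed by the X2 and Y boxes through which Nlrc5 acts. RefSeq promoters (mouse build GRCm38.p6, a C57BL/6J reference, 250 bases before to 50 after the start) were matched by symbol for 7 of the 10 genes. H2-K1 had 2 annotated starts, and the more downstream one was used. The 180 bases just before the start are printed for 6 of these genes, all but Tapbp. They are written 5' to 3' on the strand of the gene, with motif matches in capitals. The motifs were chosen after the promoters had been seen and were searched on both strands: GGGATTNCC (NF-kappa B site of the class I enhancer), AANNGAAA (IRF core), TGACG (X2 box core) and CCAAT (Y box core). Their windows are chr17:34000334-34000513 (minus strand) for H2-K1, chr17:35379437-35379616 (plus) for H2-Q4, chr17:37270054-37270233 (plus) for H2-M3, chr17:36032702-36032881 (minus) for H2-T23, chr2:122147507-122147686 (plus) for B2m and chr17:34187376-34187555 (plus) for Tap1.
H2-K1 promoter: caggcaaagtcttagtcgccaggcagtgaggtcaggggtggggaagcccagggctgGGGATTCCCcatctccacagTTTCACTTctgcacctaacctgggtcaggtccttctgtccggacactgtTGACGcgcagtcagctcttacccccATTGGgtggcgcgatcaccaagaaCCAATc
H2-Q4 promoter: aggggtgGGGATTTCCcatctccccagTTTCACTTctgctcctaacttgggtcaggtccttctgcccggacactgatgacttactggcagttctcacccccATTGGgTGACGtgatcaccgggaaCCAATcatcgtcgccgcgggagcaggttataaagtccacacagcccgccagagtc
H2-M3 promoter: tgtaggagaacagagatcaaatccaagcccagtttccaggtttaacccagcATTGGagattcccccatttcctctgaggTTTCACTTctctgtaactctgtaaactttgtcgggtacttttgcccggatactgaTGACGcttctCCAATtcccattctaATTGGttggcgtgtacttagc
H2-T23 promoter: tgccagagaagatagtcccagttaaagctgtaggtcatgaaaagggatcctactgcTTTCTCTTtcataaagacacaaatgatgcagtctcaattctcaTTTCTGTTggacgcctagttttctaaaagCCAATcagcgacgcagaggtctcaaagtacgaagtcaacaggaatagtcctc
B2m promoter: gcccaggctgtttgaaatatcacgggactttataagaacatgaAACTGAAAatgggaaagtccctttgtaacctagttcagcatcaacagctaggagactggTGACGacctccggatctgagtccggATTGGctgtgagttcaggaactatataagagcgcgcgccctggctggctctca
Tap1 promoter: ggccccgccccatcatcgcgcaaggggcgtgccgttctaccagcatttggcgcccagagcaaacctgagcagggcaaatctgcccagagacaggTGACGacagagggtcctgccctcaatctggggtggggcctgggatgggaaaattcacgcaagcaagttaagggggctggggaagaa

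H2-K1 and H2-Q4 both have the NF-kappa B match with the IRF match just downstream of it, and their promoters have 80.3% identical bases over 254 aligned columns. Nearer the start, the X2 core match lies before both Y core matches in H2-K1 and between them in H2-Q4. This order concerns the matched letters only, since the surrounding bases line up. After the shared letters ggacactg, H2-K1 reads tTGACG and H2-Q4 reads atgact, which misses the pattern in its last letter. The H2-Q4 match lines up with tggcg in H2-K1. The NF-kappa B letters are in 0.938% of 32851 promoters of that length, and among the members in H2-K1 and H2-Q4 only. The pattern was written with these promoters in view and covers the forms of both genes, so this is a description and no test. H2-M3 reads Gagattccc upstream of its IRF match, which the pattern leaves out. The IRF core is in 5 of the 7 promoters (23.9% of all promoters), the X2 core in 5 (20.8%) and the Y core in 7 (37.4%). Tapbp, whose promoter is not printed, has Y core matches only. H2-T23, the member with the lowest adjusted p between populations, has a pair of IRF core matches and no X2 core match in this window. H2-K1 was called between pools and H2-Q4, with the same kinds of match, was not. A match is a stretch of letters, and binding was not measured. The full 300-base promoter of Tap1 overlaps that of Psmb9, the neighbouring immunoproteasome gene read from the opposite strand, by 275 bases.

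**Figure D4:**
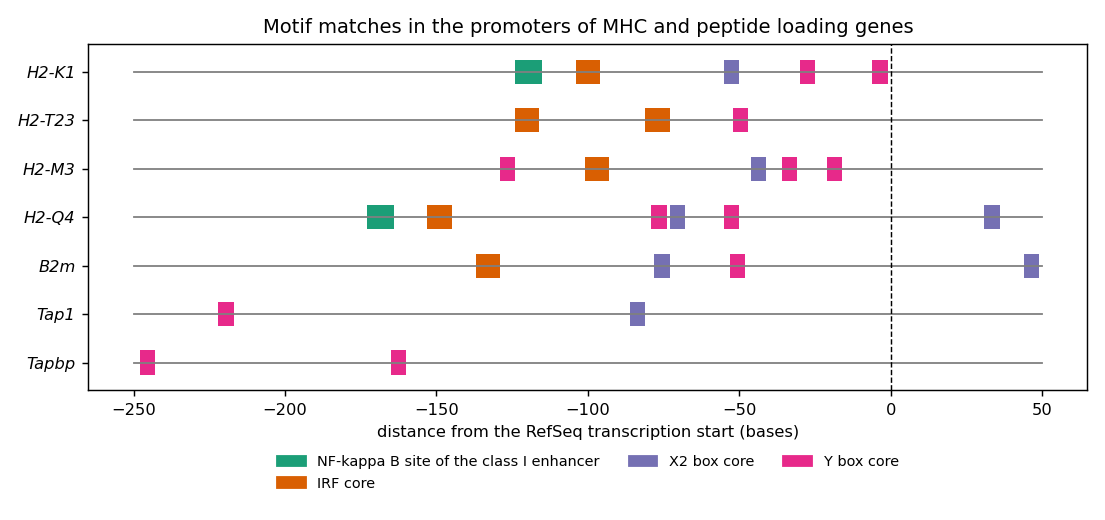
Position of motif matches relative to the RefSeq transcription start (horizontal axis, bases; grey line from 250 before to 50 after the start) in 7 promoters, coloured by motif. The NF-kappa B and IRF matches of H2-K1 and H2-Q4 lie side by side, beginning at positions -124 and -104 in H2-K1 and at -173 and -153 in H2-Q4. Counted from the other annotated start of H2-K1, the same matches begin at -110 and -90. The sequences of the 2 genes line up over this stretch, so the offset between them follows where each start is annotated.

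The other genes of the pathway were described from 7 lists, of which 95 genes were measured: 14 were lower in Lu-pos cells, 6 were higher and 75 were not called. Over all genes, those below background included, the shares were 7.19% lower and 4.35% higher. The higher calls of these lists are near that share. Whether the lower calls exceed theirs was not tested, and each list's count is given as a description. Of the 7 immunoproteasome genes, 4 were lower in Lu-pos cells, none was higher, and the list's median log2 fold change was -0.42 against -0.02 for all genes. In the immunoproteasome list all 4 calls held when each pool was left out in turn, none was made in pools 1 to 3 alone, and 2 (Psmb9 and Psmb10) were made in pools 4 to 7 alone. Psme1 was not called with housekeeping scaling. Psmb8, Psmb9 and Psmb10 encode the catalytic subunits that replace those of the standard proteasome under interferon, and Psme1 encodes a subunit of its PA28 activator.

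Psmb9 ran between 7.30 and 8.12 in Lu-pos samples, with a median of 7.84, and between 8.03 and 9.05 in Lu-neg samples, with a median of 8.78. It was lower in Lu-pos cells in each pool, by 0.66 to 1.03 log2 units (1.77-fold lower, -0.82 ± 0.08 log2 units with its standard error, limma adjusted p = 0.000517). Tap1, whose promoter overlaps that of Psmb9, had a log2 fold change of -0.29 and was not called. Psmb10 ran between 5.95 and 6.65 in Lu-pos samples and between 6.61 and 7.68 in Lu-neg samples (log2 fold change -0.83, adjusted p = 0.000893). Psmb8 (-0.68, adjusted p = 0.00527) and Psme1 (-0.42, adjusted p = 0.0153) were also lower in all 7 pools. The other activator genes Psme2 (-0.15) and Psme3 (0.10) and the assembly factor Pomp (-0.34) were not called.

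**Figure D5:**
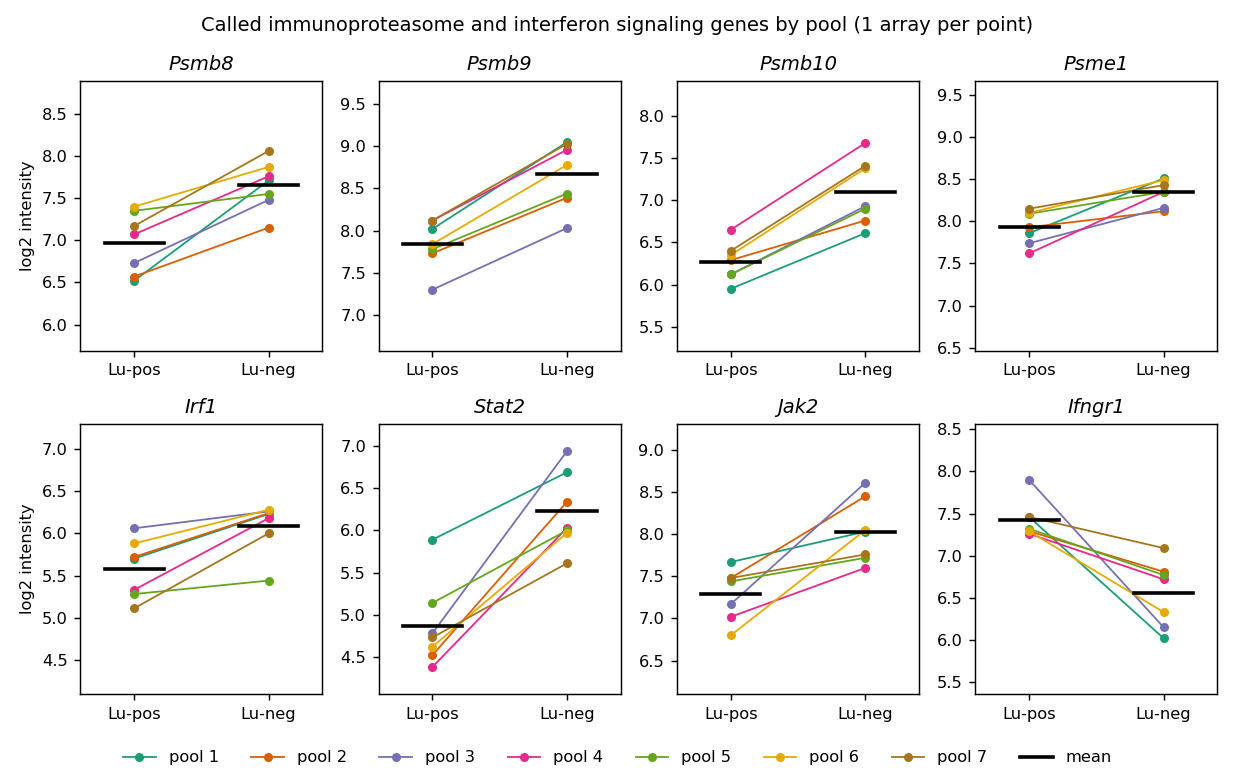
Log2 intensity (vertical axis) of 8 called genes of the immunoproteasome and of interferon signaling in Lu-pos (left) and Lu-neg (right) samples, 1 point per array, with lines joining the samples of a pool and black bars for the population means. Ifngr1 was higher in Lu-pos cells in each of the 7 pools and the other 7 genes were lower in each.

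Of 23 measured regulators of MHC genes, 3 had lower and 3 had higher levels in the Lu-pos fraction. Stat2, a transducer of type I interferon signals, ran between 4.38 and 5.89 in Lu-pos samples and between 5.61 and 6.94 in Lu-neg samples (2.57-fold lower, -1.36 ± 0.17 log2 units with its standard error, limma adjusted p = 0.00155). Irf1, which binds the interferon elements of class I promoters, was lower by 1.42-fold (log2 fold change -0.51, adjusted p = 0.0149, and 0.0672 without the pairing), and Jak2, a kinase of the interferon gamma receptor, by 1.67-fold (-0.74, adjusted p = 0.0159). Ifngr1, a chain of that receptor, went the other way. It ran between 7.26 and 7.90 in Lu-pos samples, above all Lu-neg samples, which ran between 6.02 and 7.09 (log2 fold change 0.87, adjusted p = 0.0113). Rela, an NF-kappa B subunit (0.38, adjusted p = 0.0314), and Rfxap, a subunit of the complex on the X box (0.56, adjusted p = 0.0294), were also higher. The calls of Rela and Rfxap each held in 2 of the 7 fits that left out a pool.

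Of 10 measured class I-like genes outside the H2 region, 2 were lower in Lu-pos cells and none was higher. Both encode heavy chains that pair with beta-2 microglobulin. Fcgrt, the neonatal Fc receptor that carries antibodies across epithelia, ran between 5.47 and 6.46 in Lu-pos samples and between 6.74 and 7.54 in Lu-neg samples, with no overlap (2.21-fold lower, -1.14 ± 0.13 log2 units with its standard error, limma adjusted p = 0.000945). Mr1, which presents vitamin B metabolites to MAIT cells, was lower by 1.76-fold (log2 fold change -0.82, adjusted p = 0.00649). Of 17 further class I heavy chains of the H2 region none was called over all pools by limma or by the methods' paired t-test, none had an unadjusted p under 0.05, and 5 had a mean above background. In pools 1 to 3 alone limma called H2-Q10. H2-D1 and H2-L, the other classical heavy chains, have no single-symbol probe set here and were not analysed.

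Peptide loading and trimming genes beyond the members were mixed, with 3 of 12 lower (Sec61b -0.65, Thop1 -0.61 and Bcap31 -0.41) and 1 higher (Ero1a 0.56), and between 0 and 3 of them were called when a pool was left out. Ero1a is an oxidase of the endoplasmic reticulum and Thop1 a cytosolic peptidase. None of the 14 measured genes of class II chains and loading was called by limma (1 higher and 2 lower at an unadjusted p under 0.05). The 4 with a mean above background were Ctsl, Ifi30, Lgmn and Marchf8, and none of them is a class II chain. H2-Aa, the alpha chain that pairs with the H2-Ab1 product, had means of 3.51 in Lu-pos and 3.73 in Lu-neg cells. Cd74 was not measured. The lysosomal protease Lgmn (log2 fold change -0.92, limma adjusted p = 0.0632) missed the threshold, and was called lower without the pairing, without pool 6, with a trended, robust prior, with dim genes left out and by the methods' paired t-test without adjustment. Among 12 ligands that restrain or assist immune cells, Cd47 (1.15), which binds a receptor on macrophages that holds back phagocytosis, and Btn1a1 (2.11), a butyrophilin best known from milk fat secretion, were higher in Lu-pos cells. Lgals9 (-1.11), a galectin, and Vtcn1 (-0.73), the inhibitory ligand B7-H4, were lower. Of the 95 genes in these lists none was called between pools by limma, and 15 had an unadjusted p under 0.05 there.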

How the data were processed

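Luminal cells were sorted by CD24 and ICAM-1, their RNA was amplified by the authors (Nugen Ovation) and hybridised to Affymetrix whole-transcript mouse arrays. The files hold log2 intensities for each probe set, as deposited by the authors, and the submitters' processing notes name RMA and Affymetrix Expression Console without a version. The authors' own quantile normalization was not repeated. Of 41345 probe sets, 23521 carry 1 symbol, 1820 several and 16004 none in the platform annotation. Several-symbol probe sets, 7 of which name an H2 gene and 1 of these a member, were left out, so cross-hybridisation between class I genes was not tested. The brightest probe set stood for a gene.

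Population and pool were fitted together in limma 3.58.1 (R 4.3.3), with Benjamini-Hochberg adjustment over 22180 genes at 0.05, and differences between pools by the F statistic over the pool terms. The script was tested on simulated data. The labels describe paired samples, and same-numbered samples deviated together in all 7 pools (r from 0.166 to 0.256), so the number was kept as a block, although in 3 of the 7 pools at least 1 sample correlated better with a sample of another number than with its partner. Members, lists and the named genes (all members, each called list gene and the nearest genes by correlation) were chosen with earlier results of these data known. Arrays give no read depth, so precision is limited by their number. In the main fit, the p-values between populations rest on how the Lu-pos minus Lu-neg difference varied from pool to pool. Those between pools set the pool levels against that same residual spread, with 1 array of each population per pool. Alternatives were no block, the methods' paired t-test, other variance priors, array weights, a filter on dim genes, averaged probe sets, other scalings and left-out pools.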

Additional observations from a re-analysis of the deposited data

Results flagged for a closer look

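The Lu-pos sample of pool 3 stood apart for Tapbp, at a log2 intensity of 6.11, while the nearest other Lu-pos sample was at 6.59. This gap was 0.578 of the whole range of the 7 Lu-pos samples, more than Dixon's limit at 95% for a group of that size. It was the only one of 20 groups tested (10 genes in each population), and chance alone flags about 1 in 20.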

How the results depend on the processing

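H2-T23 kept its call in every alternative except the fit of pools 1 to 3 alone (adjusted p = 0.138), and its log2 fold change stayed between -0.67 and -0.48. The 2 calls among members became 1 (H2-T23) with the methods' paired t-test, both at an unadjusted p with a 1.5-fold limit and after Benjamini-Hochberg, and with housekeeping scaling, and 0 in pools 1 to 3 alone. Leaving out a pool gave 1 to 2. Without the replicate block the count was 2 but the genes were H2-T23 and H2-M3, and 18 pathway genes were called, with Irf1, Ero1a, Sec61b and Rfxap lost and Uggt1 and Lgmn gained. H2-M3 was also called with array weights (adjusted p = 0.031), with dim genes left out (0.0365) and in pools 4 to 7 alone (0.0467), and H2-K1 with a trended, robust prior (0.0273). The 20 called pathway genes became 11 with the adjusted t-test, 7 in pools 1 to 3, 8 in pools 4 to 7, and 14 to 18 without a pool. Signs turned for H2-Ab1 without pool 3 (-0.02, against up to 0.25 without another pool) and for Nlrc5 with housekeeping scaling (0.04) and in pools 1 to 3 (0.07). Housekeeping scaling raised every log2 fold change by 0.131, and turned 964 higher and 1595 lower calls over all genes into 1761 and 926. Without Hprt, an alternative chosen after seeing the data, the shift was 0.053 and the calls 1176 and 1242. H2-K1 alone was called between pools in every setting run. Few arrays in the split fits, and signals near background for H2-M3 and Nlrc5, limit what could be called.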
